A study of Homo sapiens with 2 samples.

Results

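Protein phosphatase 2A (PP2A) is described here by 10 genes that encode its scaffold, catalytic and regulatory subunits, as measured in U87 glioma cells after silencing of HOXD9. The genes were chosen by name, and all probe sets that the platform annotation assigns to one of them alone were taken. They are PPP2R1A, PPP2R1B, PPP2CA, PPP2CB, PPP2R2A, PPP2R3A, PPP2R5A, PPP2R5C, PPP2R5D and PPP2R5E, 10 of 19775 named genes, and they were read by 33 of 54613 probe sets. PPP2R1B was chosen because it was lower on several probe sets in these same data, so its ratios are a description and support nothing by themselves. U87, an established cell line from a human glioblastoma, was transfected with HOXD9 siRNA-2 (1 array) or with a non-silencing control siRNA (1 array), each at 50 nM, and total RNA taken on Day 2 was hybridized to Affymetrix Human Genome U133 Plus 2.0 arrays. HOXD9 encodes a homeodomain transcription factor, and the study ran these arrays to look for molecules that take part in the cell death seen with its silencing. Each condition had a single array, so that no error between cultures and no test of the difference can be given, and only 1 of the study's HOXD9 siRNAs was analysed here.

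PP2A is a serine/threonine phosphatase that reverses many kinase signals and acts in mitosis, growth factor signaling and apoptosis. Its core is a scaffold subunit (A) bound to a catalytic subunit (C), and a regulatory subunit (B) joins this core and steers it to substrates and to places in the cell. The scaffold comes as the Aα isoform, encoded by PPP2R1A, or the Aβ isoform, encoded by PPP2R1B. The enzyme is known as a brake on several oncogenic pathways and is often counted among tumor suppressors.

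The values are the deposited linear signal intensities, 1 for each probe set (a group of short probes against a transcript) and array. A ratio is HOXD9 siRNA over control siRNA, given as log2. A probe set was kept if the mean of its signals on both arrays was at least 19.8, the median of all, and each gene is represented by the brightest of its kept probe sets. The arrays differed in signal level, and what this difference came from was not tested. The median signal was 18.3 with HOXD9 siRNA and 22.5 with control siRNA, and the median log2 ratio of 11624 kept genes was -0.25 as deposited and 0.05 after median centering of the arrays (each divided by its own median signal). Signals of 27 control probe sets for Bacillus subtilis transcripts reached 18.4 with HOXD9 siRNA and 11.4 with control siRNA, and 18.4 was taken as background. HOXD9 itself was near this background. Its signals were 5.58 with HOXD9 siRNA against 19.7 with control siRNA on one probe set and 11.4 against 9.33 on the other. Of these 4 only the 19.7 exceeded background, so the silencing can hardly be checked on these arrays. The paper checked it in U87 cells by qRT-PCR, which is outside these arrays. Of 6 mesenchymal glioma markers, all lay above background on both arrays, with VIM, CD44 and FN1 among the brightest signals. Of 6 astrocyte and oligodendrocyte lineage markers only PDGFRA did, and GFAP, OLIG2 and SOX2 were within background on at least 1 array. Above background on both arrays were also 3 of 4 neuronal markers (SYT1, SNAP25 and MAP2, not RBFOX3) and, of 5 immune and endothelial markers, PECAM1 alone.

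PPP2R1B, which encodes the Aβ scaffold, had 5 probe sets. On the 3 above the signal filter it was lower by more than 2-fold in HOXD9 siRNA-transfected cells. The brightest, 202884_s_at, gave a signal of 72.1 with HOXD9 siRNA and 184 with control siRNA, a log2 ratio of -1.35 or 39.3% of the control. Probe set 202883_s_at gave 32.9 with HOXD9 siRNA and 169 with control siRNA, a log2 ratio of -2.36 or 19.5% of the control. Probe set 202886_s_at gave 34.3 with HOXD9 siRNA and 157 with control siRNA, a log2 ratio of -2.19 or 21.9% of the control. All 6 of these signals lay above the background of 18.4, and the 3 kept probe sets had similar control signals but differed in their HOXD9 siRNA signal. The SD of their log2 ratios was 0.54.

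The 2 dim PPP2R1B probe sets add little. Probe set 222351_at, the only one of PPP2R1B without the _s_at suffix, gave 13.5 with HOXD9 siRNA and 24.1 with control siRNA. Since 13.5 lay within background, PPP2R1B was at least 1.31-fold lower on it, or at least 1.07-fold lower after median centering of the arrays. Probe set 202885_s_at gave 0.962 with HOXD9 siRNA and 5.98 with control siRNA, both within background, and no fold difference is given for it.

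PPP2R1A, which encodes the Aα scaffold and is the close paralog of PPP2R1B, was read by a single probe set, 200695_at. Its signal was 414 with HOXD9 siRNA and 415 with control siRNA, a log2 ratio of -0.0023. The gap between the paralogs rests on the ratios for which PPP2R1B was chosen and is given as a description. The log2 ratio of PPP2R1B minus that of PPP2R1A was -1.35 on the brightest PPP2R1B probe set, -2.35 on 202883_s_at and -2.19 on 202886_s_at, which is a 2.54-fold, 5.11-fold and 4.56-fold difference between their ratios. A constant that rescales a whole array cancels in this difference. After median centering of the arrays, PPP2R1A stood at 0.30 and the 3 PPP2R1B probe sets at -1.05, -2.06 and -1.89. Quantile normalization brought the brightest PPP2R1B probe set to -1.01, only just past 2-fold, and left the others at -2.01 and -1.85. The signals of PPP2R1A and PPP2R1B themselves come from different probes and cannot be compared with each other, so it is not known from these arrays which scaffold transcript was the more abundant.

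**Figure D1:**
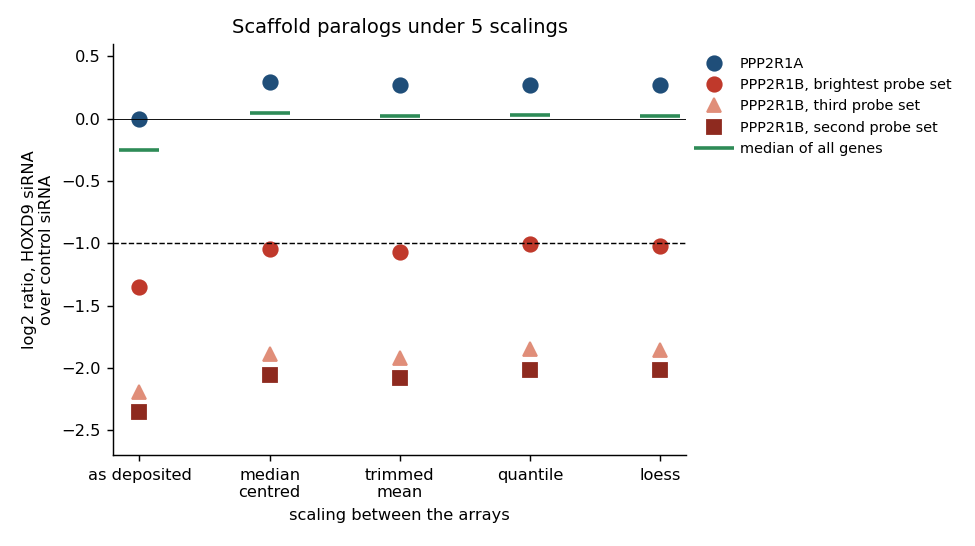
The log2 ratios (y axis, HOXD9 siRNA over control siRNA) of PPP2R1A and of the 3 kept PPP2R1B probe sets are shown under 5 scalings between the arrays (x axis), with the median of all genes as green bars. The dashed line marks 2-fold lower. PPP2R1A moves from -0.0023 to between 0.27 and 0.30 when the arrays are scaled, and the brightest PPP2R1B probe set from -1.35 to between -1.07 and -1.01.

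**Figure D2:**
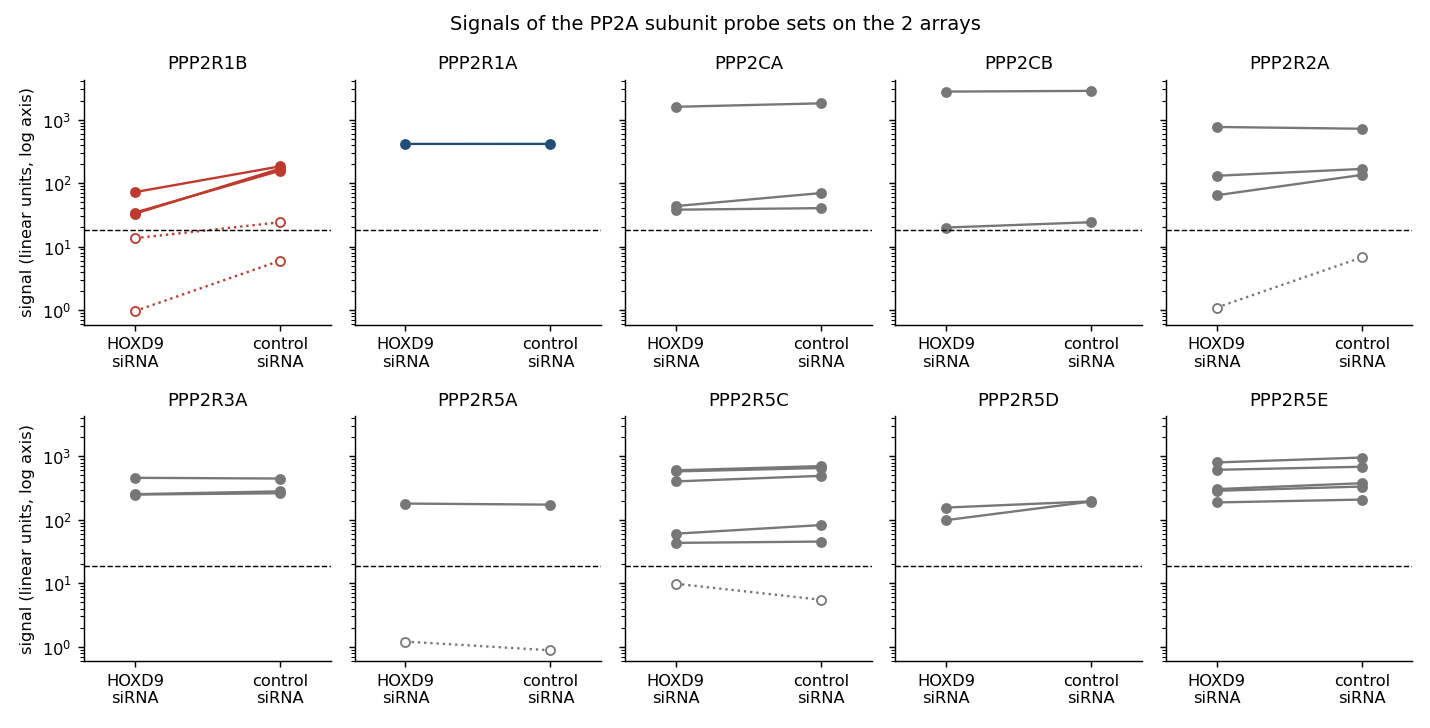
Each line joins the signals (y axis, linear units on a log axis) of 1 probe set on the HOXD9 siRNA array and the control siRNA array (x axis) for the 10 PP2A subunit genes. Filled points and solid lines passed the signal filter, open points and dotted lines did not, and the dashed line marks the background of 18.4. The 3 solid PPP2R1B lines run from 32.9 to 72.1 with HOXD9 siRNA and from 157 to 184 with control siRNA, whereas the PPP2R1A line is flat at 414 and 415.

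Among all genes, 2872 had at least 3 kept probe sets. Of these, 10 (0.348%) were lower by more than 2-fold on every one as deposited, and none was higher on every one. They were PPP2R1B, the phosphatase CTDSPL, the kinase HIPK1, the actin regulator WASF2, DIP2C, the sphingomyelin synthase SGMS2, the endoplasmic reticulum oxidase ERO1A, the small GTPase RAB27A, the zinc finger factor PLAGL1 and the sulfate transporter SLC26A2. Their median log2 ratios ran from -2.19 for PPP2R1B, followed by -1.97 for CTDSPL and -1.74 for HIPK1, to -1.05 for SLC26A2. After median centering of the arrays, 4 genes remained past 2-fold on every kept probe set, and PPP2R1B, CTDSPL, HIPK1 and SGMS2 were these 4. The number of genes higher on every kept probe set was not counted after centering. As deposited, the median log2 ratio of all kept genes was -0.25, which favors lower calls. By the median over kept probe sets PPP2R1B had the place 2 from the lowest of the 2872, and by its brightest probe set alone the place 245 from the lowest of 11624. PPP2R1B was chosen for its fall on several probe sets in these same data. Its places and its presence in the list are therefore a description and support nothing.

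The genes whose brightest probe set was nearest to that of PPP2R1B, by Euclidean distance between log2 signals over the 2 arrays, were RAB12, NAF1, INAFM2, SLC31A2 and FAM222B. RAB12, a small GTPase, was nearest at a distance of 0.07, with signals of 72.1 with HOXD9 siRNA and 193 with control siRNA. FAM222B, the farthest of the 5, lay at 0.16. With 2 arrays this likeness says only that a pair of signals was similar.

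The windows before the annotated starts of both scaffold genes are given as sequence context for the pair, since the silenced gene encodes a homeodomain factor, and they bear on no ratio. Each is the 250 bases that precede the start, on the gene's strand, from RefSeq on GRCh38.p14. PPP2R1B lies on the minus strand of chromosome 11 (window chr11:111766390-111766639) and PPP2R1A on the plus strand of chromosome 19 (window chr19:52189802-52190051, the first of 2 windows listed for this gene). Capitals mark matches, on either strand, to the homeodomain core TAAT or to a core preferred by posterior HOX proteins, which was searched as TTTAT and also as TTTAC. These motifs do not overlap in either window.
PPP2R1B: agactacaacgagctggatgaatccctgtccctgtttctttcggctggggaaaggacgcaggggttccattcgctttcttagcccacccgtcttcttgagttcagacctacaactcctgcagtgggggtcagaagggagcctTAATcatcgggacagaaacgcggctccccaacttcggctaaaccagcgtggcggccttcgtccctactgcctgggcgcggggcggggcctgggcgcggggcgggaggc
PPP2R1A: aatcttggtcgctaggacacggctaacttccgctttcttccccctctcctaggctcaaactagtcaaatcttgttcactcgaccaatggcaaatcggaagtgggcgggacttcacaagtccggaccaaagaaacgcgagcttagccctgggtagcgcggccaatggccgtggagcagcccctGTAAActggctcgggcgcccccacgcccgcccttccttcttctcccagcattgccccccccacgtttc
The PPP2R1B window held 1 match to TAAT, whose first base lies 108 bases before the start, and 0 matches to TTTAT or TTTAC. The PPP2R1A window held 1 match to TTTAC, on the opposite strand, whose first base lies 68 bases before the start, and 0 to TAAT or TTTAT. Of 35116 windows of this length, 47.4% held TAAT, 32.7% TTTAT and 25.2% TTTAC on either strand. Matches this short are common and were not tested as binding sites.

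The genes beside PPP2R1B on chromosome 11 did not share its ratio. SIK2, a serine/threonine kinase whose annotated span overlaps that of PPP2R1B by 42856 bases, gave 62.7 with HOXD9 siRNA and 74.4 with control siRNA on its brightest probe set, a log2 ratio of -0.25, with the other kept values (3 probe sets in all) reaching 0.14. ALG9, a mannosyltransferase gene on the other side, gave 167 with HOXD9 siRNA and 205 with control siRNA, a log2 ratio of -0.30. LAYN stood at -0.17, CFAP68 at -0.21 and FDXACB1 at -0.67, and HOATZ had no kept probe set. Around PPP2R1A on chromosome 19 lie zinc finger genes. ZNF836 had a log2 ratio of -0.73, ZNF616 -0.75, ZNF766 -0.43 and ZNF480 -0.25, ZNF610 had no kept probe set, and ZNF841 had no probe set of its own in the annotation. PPP2R1A at -0.0023 thus lay above its 4 measured neighbors.

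The catalytic subunits were within 2-fold on every probe set. With 5 probe sets that is no result, where 6.69% of all kept probe sets were lower and 0.615% higher. PPP2CA, the Cα subunit, gave 1595 with HOXD9 siRNA and 1808 with control siRNA on its brightest probe set, a log2 ratio of -0.18. Its other 2 probe sets were dimmer, and gave -0.68 (43.5 with HOXD9 siRNA and 69.6 with control siRNA) and -0.08 (38.1 and 40.3, in the same order). PPP2CB, the nearly identical Cβ subunit, gave 2768 with HOXD9 siRNA and 2842 with control siRNA, a log2 ratio of -0.04, and -0.28 on a probe set close to background (20.0 with HOXD9 siRNA and 24.2 with control siRNA). The catalytic transcripts are very alike, and whether each probe set binds only one of them was not analysed here.

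Of the 6 regulatory subunits among the 10 genes, PPP2R2A was the one whose kept probe sets differed most. PPP2R2A encodes a subunit of the B family, which acts at the exit from mitosis. Its brightest probe set, 202313_at, gave 767 with HOXD9 siRNA and 719 with control siRNA, a log2 ratio of 0.09. Probe set 228013_at gave 130 with HOXD9 siRNA and 167 with control siRNA, a log2 ratio of -0.36. Probe set 236492_at gave 64.4 with HOXD9 siRNA and 135 with control siRNA, a log2 ratio of -1.06, which is past 2-fold as deposited and -0.76 after median centering of the arrays. The ratio of the brightest probe set thus had the opposite sign to that of the dimmer pair, which after median centering was -0.06 on 228013_at, and the SD between the 3 was 0.58. A dim probe set within background on both arrays (1.09 with HOXD9 siRNA and 6.74 with control siRNA) gave no fold difference.

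PPP2R3A, a regulatory subunit of the B'' family that binds calcium, was close to its control on all 3 probe sets. They gave log2 ratios of 0.04 (459 with HOXD9 siRNA and 447 with control siRNA), -0.15 (253 and 281, in the same order) and -0.07 (250 and 262). The SD between these probe sets was 0.09.

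The B' family was read through PPP2R5A, PPP2R5C, PPP2R5D and PPP2R5E, whose proteins direct PP2A to kinetochores and to growth factor and Wnt signaling. None of their 13 kept probe sets passed 2-fold. With 13 that is no result about the family, where 6.69% of all kept probe sets were lower and 0.615% higher. PPP2R5A gave 180 with HOXD9 siRNA and 173 with control siRNA, a log2 ratio of 0.06, on its 1 kept probe set. PPP2R5C gave 602 with HOXD9 siRNA and 702 with control siRNA on its brightest probe set, a log2 ratio of -0.22, and the range over all 5 kept was -0.45 to -0.07. PPP2R5E gave 802 with HOXD9 siRNA and 958 with control siRNA, a log2 ratio of -0.26, within a range of -0.31 to -0.15 over all 5 and an SD of 0.07. The PPP2R5C and PPP2R5E values lie near the median of all genes, -0.25, and that of PPP2R5A above it. PPP2R5D was less even. Its probe set 211159_s_at gave 156 with HOXD9 siRNA and 195 with control siRNA, a log2 ratio of -0.32, while 202513_s_at gave 98.8 with HOXD9 siRNA and 194 with control siRNA, a log2 ratio of -0.97. The control signals of these PPP2R5D probe sets were nearly equal, and the HOXD9 siRNA signals were not.

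The sign of several small ratios depended on the scaling of the arrays. After median centering the brightest probe sets stood at 0.12 for PPP2CA, 0.26 for PPP2CB, 0.08 for PPP2R5C and 0.04 for PPP2R5E, all below 0 as deposited, whereas PPP2R5D remained below 0 at -0.02. PPP2R2A (0.39), PPP2R3A (0.34) and PPP2R5A (0.36) were above 0 under both. PPP2R1B was the member below -1 under both.

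**Figure D3:**
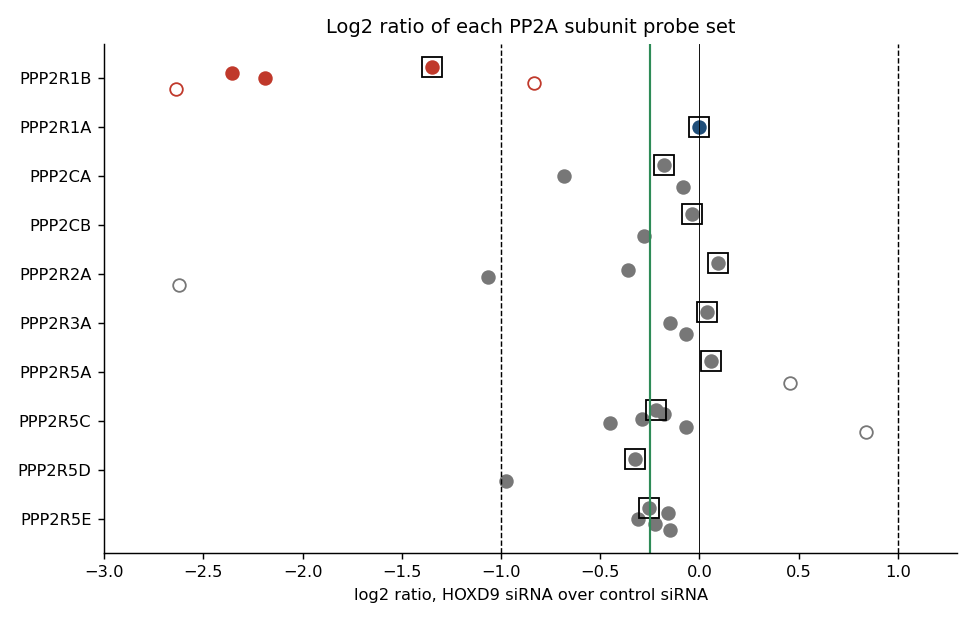
Each point is the log2 ratio (x axis, HOXD9 siRNA over control siRNA) of 1 probe set of a PP2A subunit gene (y axis). Filled points are probe sets above the signal filter and open points those below it, squares mark the brightest probe set of each gene, dashed lines mark 2-fold and the green line the median of all kept genes, -0.25. The 3 filled PPP2R1B points lie at -1.35 or below, and of the other filled points only 1 of PPP2R2A, at -1.06, passes 2-fold.

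By gene, 1 of 10 members, PPP2R1B, was lower by more than 2-fold and 0 were higher, where 4.95% of 11624 genes were lower and 0.516% were higher. The contrast that gave these values also chose PPP2R1B, so nothing is read from that count. The median log2 ratio of the 10 genes was -0.11, and that of the 9 without PPP2R1B was -0.04, against -0.25 for all genes. After median centering of the arrays these were 0.19, 0.26 and 0.05, and the count stayed at 1 lower and 0 higher, where 2.31% of all genes were lower and 1.17% higher. By probe set, 28 of the 33 were kept and 4 of the 28 were lower by more than 2-fold, 3 of PPP2R1B and 1 of PPP2R2A, where 6.69% of 27307 kept probe sets were lower. None of the 28 was higher by more than 2-fold, where 0.615% of all were. Among the 25 kept probe sets without those of PPP2R1B the count was 1, and it was 0 after median centering of the arrays, where 2.94% of all kept probe sets were lower.

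The share past 2-fold depended on signal. When the kept probe sets were divided by signal into 3 equal groups, 13.2% of the dimmest, 5.05% of the middle and 1.79% of the brightest were lower by more than 2-fold. The 3 PPP2R1B probe sets lay in the middle group, as did the 236492_at probe set of PPP2R2A and both of PPP2R5D. Since replicates are lacking, the only spread at hand is that between probe sets of the same gene, whose log2 ratios had a pooled SD of 0.41 (6081 genes), or 0.31 within the middle group of signals. The members without PPP2R1B had one of 0.28 (7 genes). Such a spread covers differences between probes on the same pair of arrays and not differences between cultures.

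**Figure D4:**
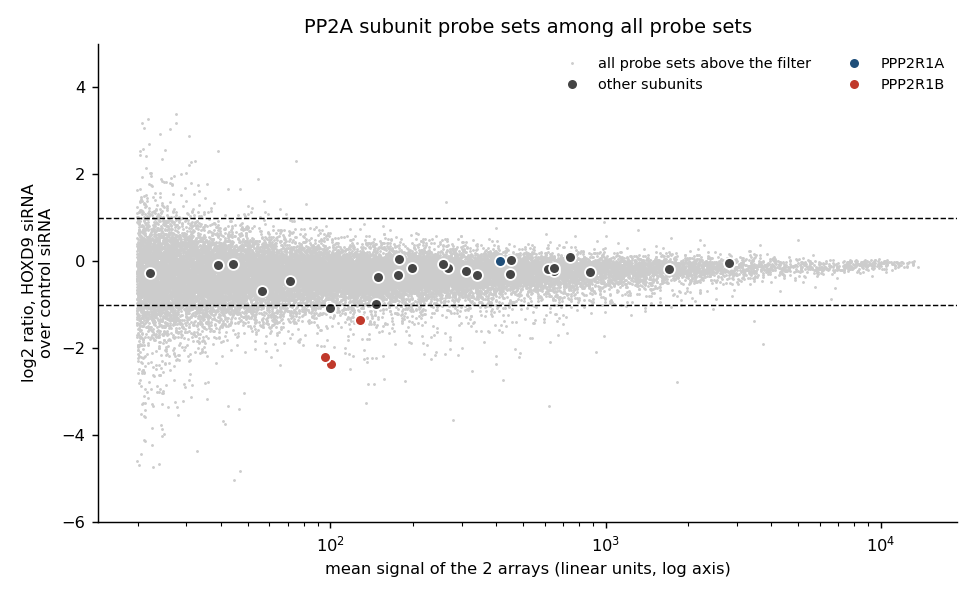
Kept probe sets are placed by mean signal on both arrays (x axis, linear units on a log axis) and by log2 ratio of HOXD9 siRNA over control siRNA (y axis). Dashed lines mark 2-fold. The 3 PPP2R1B probe sets (red) lie at mean signals of 95.5 to 128 below most probe sets of like signal, and PPP2R1A (blue) lies at -0.0023 within the cloud.

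Other genes of the PP2A system were taken as 28 genes of 4 lists. Of these, 26 had a kept probe set, and 1 was lower by more than 2-fold and 0 higher, a share near that of all genes (4.95% lower and 0.516% higher). Their median log2 ratio was -0.23, beside -0.25 for all genes. In the list of further regulatory subunits, 5 of 6 genes were kept and none passed 2-fold. PPP2R2D had a log2 ratio of -0.63, PPP2R3B -0.61, PPP2R3C -0.27 and PPP2R5B -0.10. PPP2R2C had no kept probe set among 6.

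Genes for assembly and methylation of the enzyme were likewise within 2-fold, 5 of 5 kept. With 5 genes that is no result about the list, where 4.95% of all genes were lower and 0.516% higher. IGBP1, which binds the free catalytic subunit, had the highest value at 0.29. LCMT1, the methyltransferase of the catalytic subunit, stood at -0.38, TIPRL at -0.35, PTPA, a chaperone-like activator, at -0.31, and PPME1, the methylesterase, at -0.21. Probe sets of a gene differed here too. The dimmest of TIPRL gave -1.14, or -0.84 after median centering, and one of PTPA gave 253 with HOXD9 siRNA and 164 with control siRNA, a log2 ratio of 0.62.

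Inhibitors of PP2A were kept in 7 of 7 genes, and none passed 2-fold. With 7 genes that is no result about the list, where 4.95% of all genes were lower and 0.516% higher. The lowest was MASTL, the mitotic kinase that turns ARPP19 and ENSA into PP2A inhibitors, with signals of 169 with HOXD9 siRNA and 286 with control siRNA and a log2 ratio of -0.75. ARPP19 stood at -0.51, ANP32A at -0.22, ENSA at -0.18, CIP2A at -0.17, BOD1 at -0.10 and SET at -0.07.

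The STRIPAK complexes use striatins as PP2A regulatory subunits, and 9 of 10 of their genes were kept. SIKE1, a STRIPAK member that also restrains IKK-related kinases, was the 1 gene past 2-fold. It gave 152 with HOXD9 siRNA and 332 with control siRNA on its brightest probe set, a log2 ratio of -1.12. In all, 4 of 5 SIKE1 probe sets were past 2-fold and the last had -0.35, where 6.69% of all kept probe sets were lower. After median centering of the arrays, the brightest SIKE1 probe set stood at -0.82. Of the 5, 1 then passed, where 2.94% of all kept probe sets were lower. These probe sets read the same pair of arrays and are not replicates. STRIP2 and PDCD10 both stood at -0.74, STRN3 at -0.41, the striatin STRN at -0.22 and MOB4 at 0.12.

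Related phosphatases of the same enzyme family were read beside PP2A. All 9 other catalytic genes were kept and 0 were past 2-fold by the brightest probe set, which with 9 genes is no result about the family where 4.95% of all genes were lower and 0.516% higher. They had a median of -0.12, from -0.53 for PPP5C to 0.18 for PPP3CB. PPP6C was uneven, at -0.21 and -0.60 on its brighter pair of probe sets and at -1.26 and -1.02 on the dimmer pair. The dim PPP5C probe set gave 32.1 with HOXD9 siRNA and 15.5 with control siRNA, the 15.5 within background, so that PPP5C was at least 1.74-fold higher on it. All 7 regulatory genes of PP4 and PP6 were kept, with a median of -0.30, and the lowest was PPP4R3A at -0.73.

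**Figure D5:**
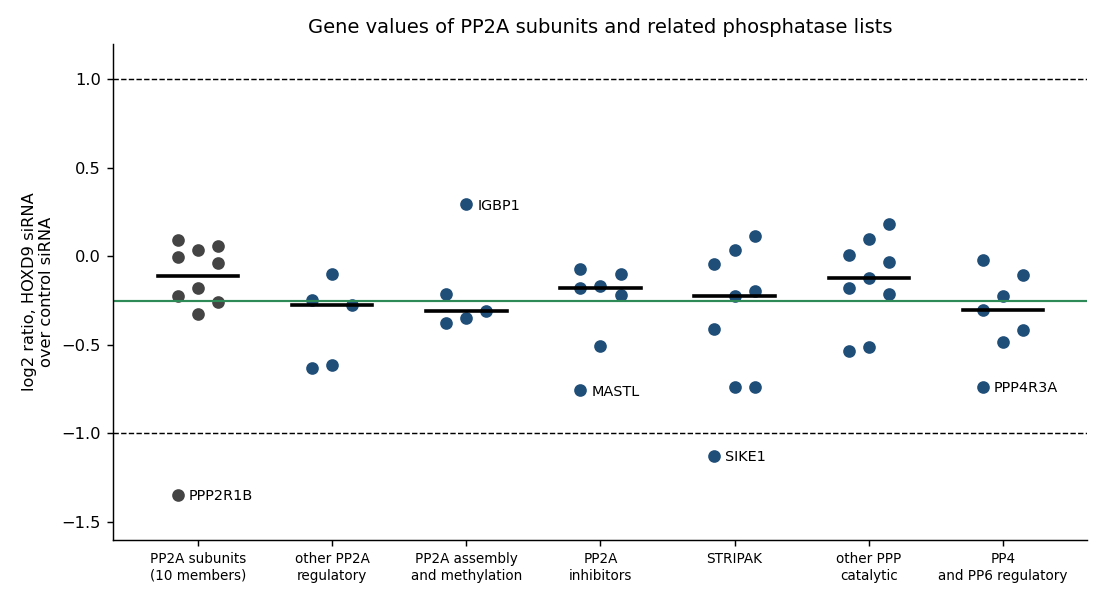
Points give the log2 ratio of HOXD9 siRNA over control siRNA (y axis) for single genes, by the brightest kept probe set, in the PP2A subunit genes and 6 related lists (x axis). Black bars mark the medians, dashed lines 2-fold and the green line the median of all kept genes, -0.25. PPP2R1B at -1.35 and SIKE1 at -1.12 are the points past 2-fold.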

How the data were processed

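RNA of U87 cells was measured on 1 array for each siRNA. The sample labels give seeding of the cells 48 h before transfection for both arrays, and the paper's methods give a shorter time. What the authors deposited is a linear signal intensity for each probe set and array. GCOS is named in the submitters' processing notes and GeneSpring in the paper's methods. Neither the algorithm and its settings nor a scaling target is stated in the sources used, and the arrays differed in median, so a scaling difference would shift every ratio alike. The number of arrays limits the precision.

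Control probe sets (62) were set aside. Of 54613 probe sets, 41091 had 1 gene, 1801 several and 11721 were unnamed here, and symbols were checked by Entrez number against RefSeq (GRCh38.p14), which 41037 matched. The threshold was more than 2-fold, as in the study. For single probe sets in the text, a ratio with 1 of its signals at or under 18.4 is given as a bound. Counts, medians, spreads and figures use the plain ratios.

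The members, lists and rules were chosen with earlier results of these data known. Named genes are the members, HOXD9, list genes past 2-fold or with the largest ratios, genes with 3 or more kept probe sets all past 2-fold, the 5 nearest to PPP2R1B, and 3 protein-coding neighbors on each side of the scaffold genes. Single probe sets named in the text for TIPRL, PTPA, PPP6C and PPP5C, and further list genes, were chosen after their values were seen. Alternatives were 4 other scalings (loess fraction 0.3, trimmed mean without 2% at each end), 2 other signal filters, a floor, averaged probe sets, and no _x_at or _s_at probe sets. The procedure was tested on simulated data. Python 3.11.15, numpy 2.4.6, pandas 2.3.3, statsmodels 0.14.6 and matplotlib 3.10.9 were used.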

Additional observations from a re-analysis of the deposited data

How the results depend on the processing

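PPP2R1B kept its direction and stayed past 2-fold under all 8 alternatives that gave it a value, from -1.96 to -1.01. The other signal filters and the floor left its brightest probe set, and so its value of -1.35, unchanged. Quantile normalization (-1.01) and loess (-1.02) left it only just past 2-fold. PPP2R1B was chosen for its fall in these same data, so this is a description and supports nothing. PPP2R1B had no value without _x_at and _s_at probe sets. Its 3 kept probe sets are of the _s_at type, whose probes can match several transcripts. Its plain _at probe set, 222351_at, lay below the signal filter and was at least 1.31-fold lower with HOXD9 siRNA. The count of members past 2-fold without _x_at and _s_at probe sets was 0. With the mean over probe sets PPP2R1B stood at -1.96 and PPP2R1B minus PPP2R1A at -1.96, and PPP2R2A at -0.44. PPP2R1A ran from -0.0023 to 0.30, the median of the members from -0.23 to 0.19. The count of other PP2A genes past 2-fold, 1 as deposited (SIKE1), was 0 after centering on the median, scaling to one trimmed mean, quantile normalization and loess. No replicate could be left out. No paired analysis was possible because each condition has 1 array. Signals near 18.4 limit the dim probe sets.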

Other observations

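Within the members, dimmer kept probe sets had a lower log2 ratio than the brightest one of their gene in 12 of 18 cases (66.7%), with a median difference of -0.15. Over all genes this held for 5941 of 11066 dimmer probe sets (53.7%), with a median difference of -0.03. The 18 cases include the dimmer probe sets of PPP2R1B, a gene chosen for its fall on several probe sets. The contrast with all genes is thus a description and was not tested. The differences were widest for PPP2R2A (-1.16 on 236492_at), PPP2R1B (-1.01 on 202883_s_at and -0.84 on 202886_s_at) and PPP2R5D (-0.65). Which transcripts each of these probe sets binds was not analysed here.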
